A study of Mus musculus with 51 samples.

Results

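Leptonema-only sites are the places in the mouse genome where an H3K4me3 peak was called in each of the 2 leptonema libraries but not in any of the 8 libraries of the 4 later stages. They were selected on these calls: the 10 peak lists made with the EpiCypher antibody were merged into 25578 sites on chromosomes 1 to 19, and 335 sites, or 1.31% of all, met the rule. Of the 335, 248 (74.0%, exact binomial 95% interval 69.0 to 78.6) lay within 500 bp of an annotated transcription start site (TSS) and 87 did not, where 48.9% of all merged sites did. Both values moved most when leptonema R1 was left out, which leaves 1 leptonema list to choose sites. Then 2906 sites met the rule and 43.7% of them were at a TSS. Without leptonema R2 it was 501 sites and 64.1%, and with EpiCypher lists of equal length 219 sites and 86.8%. The cause of these shifts was not tested. Because the rule is made of these calls, the EpiCypher calls at the 335 sites are not a finding, and what follows describes which genes they mark, how wide the peaks were, and what a second antibody and a second histone mark showed at the same places.

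The nuclei came from whole testes of adult male C57Bl/6J wild-type mice, with no genetic or drug treatment in any group. Formaldehyde-fixed 4C nuclei were sorted by DNA content and intranuclear proteins into leptonema (LE), zygonema (ZY), early pachynema (EP), late pachynema (LP) and diplonema (DI), which follow each other in meiotic prophase I. Leptonema was taken in a sort of its own that used SCP3 and STRA8, whereas the other 4 stages came from a sort that used SCP3, H1t and SCP1, so stage and sort cannot be told apart at these sites. Each stage had 2 EpiCypher H3K4me3 libraries, labelled experiments R1 and R2, 1 H3K4me2/3 library made with an Abcam antibody from R2, and 1 H3K9ac library from R1. The Abcam and H3K9ac libraries therefore share an experiment with 1 of the lists that chose the sites. The Abcam antibody also detects H3K4me3, so its calls at these sites are not independent of the rule. The antibody label of the H3K9ac samples names H3K4me3, while their titles and the study's methods name H3K9ac, and they are called H3K9ac here.

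The lists hold positions only, without height or read number, so the depth behind a call is unknown. EpiCypher lists held 4883 to 15699 peaks, with 9528 in leptonema R1 and 13095 in leptonema R2. Abcam lists held 17561 to 30943 peaks and H3K9ac lists 516 to 16003. Of 55 marker genes of Sertoli, Leydig, myoid or stromal, and macrophage or endothelial cells, 2 had a peak at a TSS in leptonema R1, 8 in leptonema R2 and 0 to 6 in the 8 other EpiCypher lists. In the Abcam lists the count was 25 in leptonema, 19 in zygonema and 8 to 11 later, and in the H3K9ac lists 0 to 2. Only 1 of the 55 genes, Pdgfra, lay at a leptonema-only site, and the part of somatic nuclei in the other sites was not tested.

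H3K4me3 is the trimethylated form of lysine 4 on histone H3. It is deposited at the promoters of active and poised genes, mainly at CpG islands, and in spermatocytes also by PRDM9 at recombination hotspots. H3K9ac is an acetylated lysine on the same histone tail that accompanies active promoters. Leptonema is the stage at which meiotic chromosomes begin to condense along their axes and programmed DNA breaks begin to form, just after premeiotic S phase. Entry into it depends on STRA8, a retinoic acid-induced protein that acts with MEIOSIN on the promoters of meiotic genes.

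The name of the set holds for the EpiCypher calls and not for the Abcam calls. With the Abcam antibody, 262 of the 335 sites (78.2%) also had a peak at early pachynema, against 48.6% of all merged sites. At late pachynema 215 (64.2%) had one, against 51.9%, and at diplonema 155 (46.3%), against 51.0%. The members lay at a TSS more often than all merged sites did (74.0% against 48.9%). Among TSS sites alone, members had 87.9% at early pachynema against 83.2%, but 72.2% at late pachynema against 86.9%. At diplonema they had 51.6% against 85.5%. At all 5 stages 140 (41.8%) had an Abcam peak, against 40.4% of all merged sites. At TSSs this was 118 of the 248 members and 9357 of all 12509 sites. Of the 8634 sites in both leptonema lists, 84.2% had an Abcam peak at all 5 stages. At 11 sites (3.28%) there was an Abcam peak at leptonema and at no other stage, none of them at a TSS, as at 2.32% of all merged sites. Stra8 lay between these groups, with Abcam peaks at leptonema and zygonema only.

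The 200 bp upstream of the TSS are shown for Stra8, the gene whose protein was used to sort leptonema, and for B020017C02Rik, Jade1 and Figla, whose leptonema peaks were among the highest ranked in width at a TSS. The sequence is that of RefSeq's GRCm38.p6, which is mm10, on the strand of the gene and ends at the base before the TSS. The TSS used is the one nearest to the centre of the site with no exon of the gene in these 200 bp. Capitals mark matches on either strand to the motifs that were searched: the STRA8 and MEIOSIN motif CNCCTCAG, the GC box GGGCGG, the CCAAT box and others named further on. The windows are chr6:34919963-34920162 (+) for Stra8, chr3:54634569-54634768 (-) for B020017C02Rik, chr3:41555531-41555730 (+) for Jade1 and chr6:86016991-86017190 (+) for Figla.
Stra8: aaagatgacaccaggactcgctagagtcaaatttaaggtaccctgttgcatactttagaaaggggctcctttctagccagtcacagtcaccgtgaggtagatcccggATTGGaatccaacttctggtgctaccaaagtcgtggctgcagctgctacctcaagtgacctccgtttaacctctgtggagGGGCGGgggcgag
B020017C02Rik: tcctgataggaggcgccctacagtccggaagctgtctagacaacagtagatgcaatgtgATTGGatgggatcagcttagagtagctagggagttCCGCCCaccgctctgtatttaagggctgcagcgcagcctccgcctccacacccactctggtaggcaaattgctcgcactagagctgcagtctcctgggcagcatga
Jade1: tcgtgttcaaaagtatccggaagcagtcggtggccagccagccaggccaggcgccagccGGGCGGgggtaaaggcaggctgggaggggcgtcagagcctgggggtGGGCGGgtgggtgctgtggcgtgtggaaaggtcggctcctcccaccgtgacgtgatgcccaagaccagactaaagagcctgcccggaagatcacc
Figla: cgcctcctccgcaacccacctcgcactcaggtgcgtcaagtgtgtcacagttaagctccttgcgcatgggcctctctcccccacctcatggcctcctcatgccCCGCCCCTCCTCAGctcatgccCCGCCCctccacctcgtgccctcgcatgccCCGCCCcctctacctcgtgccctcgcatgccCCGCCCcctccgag

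These windows held 52.5% (Stra8), 56.0% (B020017C02Rik), 66.5% (Jade1) and 69.5% (Figla) G and C, with 7, 7, 13 and 14 CpGs. Each but that of Figla had 1 or 2 GC boxes, and that of Figla had 4, and its 1 STRA8 and MEIOSIN motif directly follows a GC box. The windows of Stra8 and B020017C02Rik each had a CCAAT box. The window of B020017C02Rik overlaps an exon of the antisense lincRNA Gm26678.

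Promoters of the fixed gene lists are described first, beginning with genes of meiotic entry and the DNA breaks. Stra8 (ENSMUSG00000029848.11), needed for germ cells to enter meiosis, had a site at chr6:34920110-34922174. Its H3K4me3 peak was 586 bp wide in leptonema R1 and 2065 bp in leptonema R2. The Abcam peak was 2234 bp wide in leptonema and 1593 bp in zygonema, with no peak from early pachynema on, and H3K9ac was called in zygonema alone, over 413 bp. Stra8 was the sole gene of 32 for meiotic entry and retinoic acid signalling at a leptonema-only site, whereas 21 of the 32 had a TSS at some EpiCypher site.

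Mei4 (ENSMUSG00000043289.12), which is required for meiotic DNA break formation, had a site at chr9:81863425-81864349 with H3K4me3 peaks of 684 and 924 bp in leptonema R1 and R2. Its Abcam peak was called at every stage, over 1172, 885, 856, 551 and 663 bp from leptonema to diplonema, and no H3K9ac peak was called at any stage. Mei4 was the sole member among 37 annotated genes of break formation and strand exchange, 33 of which had a TSS at some site. None of 29 axis and synaptonemal complex genes was a member, although 26 had a TSS at some site.

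S-phase genes gave 2 members out of 63, 61 of which had a TSS at some site. Mcm2, a subunit of the replicative helicase, had H3K4me3 peaks of 222 and 893 bp in the leptonema libraries and H3K9ac peaks of 153 bp in leptonema and 913 bp in zygonema. Pold1, the catalytic subunit of DNA polymerase delta, had H3K4me3 peaks of 343 and 318 bp and no H3K9ac peak. Both had an Abcam peak at all 5 stages, which for Mcm2 was 1384 bp wide in leptonema and 725 bp in diplonema, and for Pold1 776 and 166 bp. Cd9, a tetraspanin on spermatogonial stem cells, was the member of 37 annotated spermatogonial genes and had narrow peaks of 151 and 363 bp.

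Among the fixed lists of somatic, epithelial and developmental genes, 5 genes lay at members. Pdgfra, the stromal receptor for PDGF, had H3K4me3 peaks of 622 and 712 bp, Abcam peaks in leptonema (2765 bp) and zygonema (1069 bp) only, and no H3K9ac peak. Foxd2, a forkhead factor, and Lhx4, a LIM homeodomain factor, were 2 of 231 developmental regulators, 151 of which had a TSS at some site. Both had Abcam peaks from leptonema to late pachynema, over 2967 bp in leptonema and 155 bp in late pachynema for Foxd2 and 2758 and 761 bp for Lhx4, and an H3K9ac peak in zygonema. The leptonema libraries differed on this list: 26 of the 231 regulators had a TSS peak in R1 and 129 in R2. Esrp1, an epithelial splicing factor, and Marveld2, a protein of tricellular tight junctions, were 2 of 30 epithelial genes.

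In all, 7 of the 13 gene lists had a member, with 10 genes between them, and no list gave more than 2. Over the genome, 243 of 20778 annotated protein-coding genes, or 1.17%, had a TSS at a leptonema-only site. No pachytene-programme gene out of 24, no spermatid gene out of 26 and no Sertoli, Leydig, macrophage or endothelial marker was a member. Counts of 1 or 2 genes are too small to set a list apart from that share, and none was tested.

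The 12 TSS sites that ranked highest in peak width over the leptonema lists held other genes of germ cells and of development. Figla, a basic helix-loop-helix factor of oocytes, had H3K4me3 peaks of 956 and 1244 bp in R1 and R2 and Abcam peaks at every stage, between 527 bp (zygonema) and 1245 bp (leptonema). M1ap, needed for male meiosis, had peaks of 641 and 2103 bp and Abcam peaks of 1729, 1625 and 444 bp from leptonema to early pachynema. Dmrt3, a DM-domain factor, had peaks of 938 and 1175 bp and an Abcam peak that measured 7014 bp in leptonema and 691 bp in diplonema. None of these had an H3K9ac peak in leptonema, and Dmrt3 alone had one in zygonema, of 199 bp.

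Gli2, a transcription factor of Hedgehog signalling, had H3K4me3 peaks of 830 and 1384 bp and Abcam peaks at leptonema (3232 bp) and zygonema (1008 bp) alone. Fzd7, a Wnt receptor, had peaks of 659 and 2575 bp and Abcam peaks of 4572, 4267 and 1429 bp, the last at early pachynema. Arhgap29, an inhibitor of RhoA, had Abcam peaks at leptonema and zygonema only, as Gli2, Pdgfra and Stra8 did. Esrp1 ranked first, with 1190 and 2298 bp in leptonema and Abcam peaks that measured 4811 bp at LE, 4723 bp at ZY, 1489 bp at EP and 467 bp at LP.

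Jade1, a subunit of the HBO1 acetyltransferase, had H3K4me3 peaks of 1066 and 1415 bp and Abcam peaks that measured 2406, 2598, 1230 and 502 bp up to late pachynema. Fam83g was the 1 site of the 12 with an H3K9ac peak in leptonema, 804 bp wide, beside one of 1211 bp in zygonema. The site of B3gnt2, a glycosyltransferase of polylactosamine chains, shared with the transcript 9130230N09Rik, and that of the processed pseudogene B020017C02Rik had Abcam peaks up to early pachynema. Cic, a transcriptional repressor, went against the others. The widest Abcam peak touching its site measured 1633 bp in leptonema and 6701 bp in diplonema. The latter span is much longer than the site, chr7:25278414-25279642. Cic had 2 other marked TSS sites, the more widely marked with a peak in 9 of the 10 EpiCypher lists. Whether the diplonema peak reaches them was not examined. Over the 12, 8 had no Abcam peak at diplonema, 5 had an H3K9ac peak at zygonema and 6 had none at any stage.

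**Figure D1:**
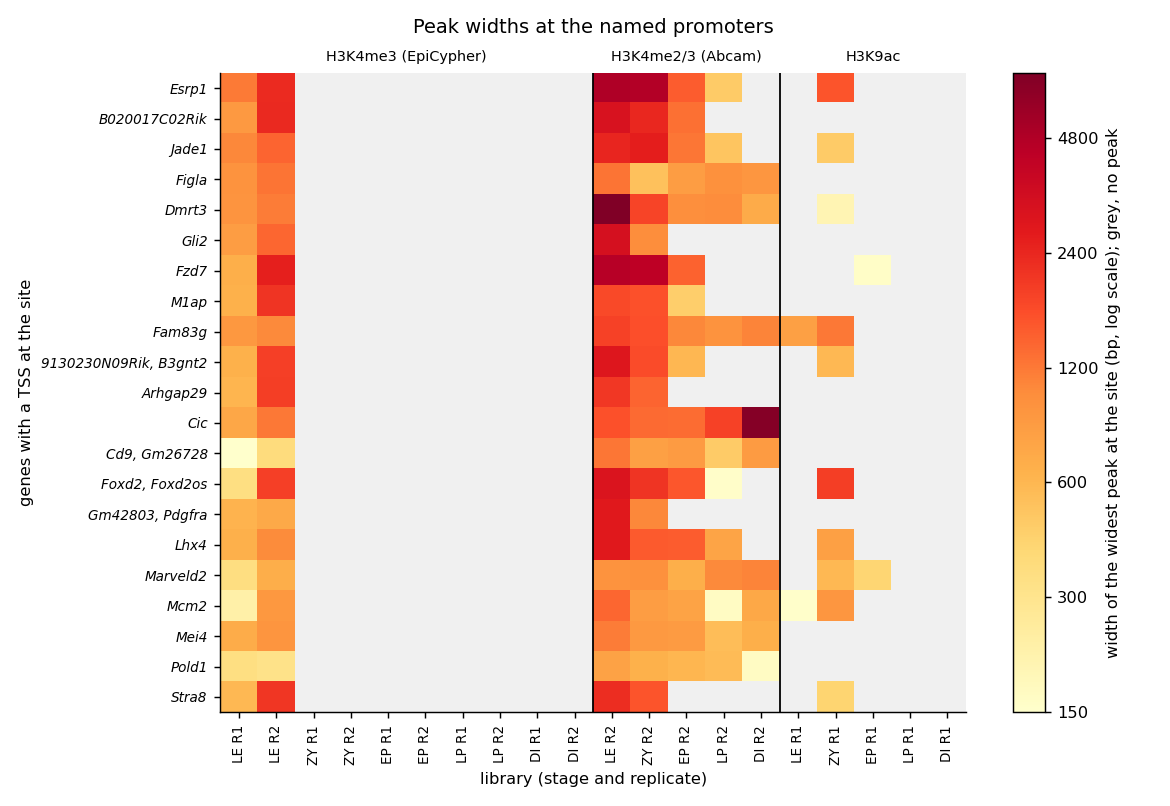
Width of the widest peak at each named promoter (rows, genes with a TSS at the site) in each of 20 libraries (columns, stage and replicate), coloured on a log scale in bp, with grey where no peak was called. The first 12 rows are the widest TSS sites and the other rows the genes of the fixed lists; the EpiCypher columns are filled for leptonema alone, as the rule requires, while Abcam peaks run on to diplonema at Figla, Dmrt3, Fam83g, Cic, Cd9, Marveld2, Mcm2, Mei4 and Pold1.

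Most members were narrow in the lists that chose them. In leptonema R1 the member peaks had a median width of 334 bp (range 151 to 1392) against 586 bp for all 9528 peaks, which placed the median member at percentile 21.4 of the list. In leptonema R2 the median was 641 bp (range 144 to 3564) against 690 bp, at percentile 45.4. Peaks wider than the list's median were found at 55 of 335 members in R1 and at 149 in R2. These widths come from the lists behind the rule and are given without a test.

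In the Abcam leptonema list the same places had wider peaks than the list as a whole, though no wider than other promoters. There, 324 of the 335 members had a peak with a median width of 1394 bp against 870 bp in the whole list, at percentile 75.2. The TSS members were at 76.0, all merged TSS sites with a peak at 77.2, and all sites in both leptonema lists at 79.8. The median percentile at the members with a peak was 64.1 at ZY, 40.9 at EP, 34.8 at LP and 22.9 at DI. At the 140 members called at all 5 stages, where the same sites were compared throughout, it was 74.1, 66.6, 44.2, 38.5 and 23.6. Of these 140, 137 (97.9%) ranked lower in diplonema than in leptonema. All 10335 merged sites with an Abcam peak at all 5 stages had medians of 77.8, 76.6, 69.2, 70.1 and 66.2, and 67.4% of them ranked lower in diplonema. With 1 Abcam library per stage there is no replicate for this difference, and no test was made.

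**Figure D2:**
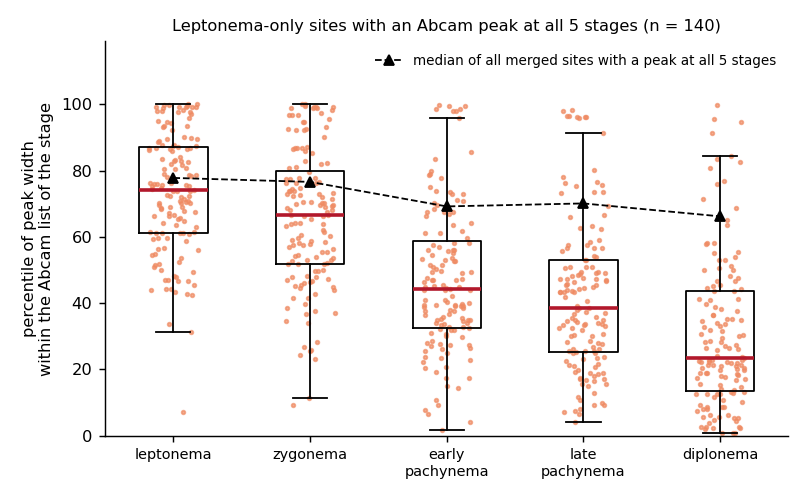
Percentile of the Abcam peak width within the list of each stage, for the 140 leptonema-only sites with an Abcam peak at all 5 stages (points, 1 per site; boxes, quartiles with the median in red; whiskers, the last point within 1.5 times the box). Triangles are the medians of all 10335 merged sites called at all 5 stages; the red medians go from 74.1 in leptonema to 23.6 in diplonema while the triangles go from 77.8 to 66.2.

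By number of sites, Abcam calls at the members were most frequent in leptonema and least frequent in diplonema. Of the 335 members, 324 had a peak at LE (96.7%, exact binomial 95% interval 94.2 to 98.3), 311 at ZY (92.8%, 89.5 to 95.4), 262 at EP (78.2%, 73.4 to 82.5), 215 at LP (64.2%, 58.8 to 69.3) and 155 at DI (46.3%, 40.8 to 51.8). The shares of all merged sites were 69.5%, 78.1%, 48.6%, 51.9% and 51.0% in the same order. These intervals cover the number of sites, not the spread between libraries, of which there was 1 per stage.

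At the 248 members with a TSS the Abcam share was 100% at LE, 99.6% at ZY, 87.9% at EP, 72.2% at LP and 51.6% at DI (45.2 to 58.0). All 12509 merged sites at a TSS had 92.7%, 90.7%, 83.2%, 86.9% and 85.5%. The members thus stood above all TSS sites from leptonema to early pachynema and below them in late pachynema and diplonema. A nearer comparison is the 7435 TSS sites in both leptonema lists, which share the leptonema calls. Of these, 7434 had a peak at LE, 7433 at ZY, 7270 at EP, 7207 at LP and 7107 at DI. Near-complete shares at LE and ZY were thus common to both sets, and the members were lower from early pachynema on. At the 87 members outside TSSs the shares were 87.4%, 73.6%, 50.6%, 41.4% and 31.0% (21.5 to 41.9), against 47.2%, 66.0%, 15.4%, 18.3% and 17.9% of the 13069 merged sites outside TSSs.

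Single sites most often either lost the Abcam call once or kept it at all 5 stages. A call in leptonema that ended at some later stage without coming back was seen at 160 members (47.8%), compared with 22.8% of all merged sites, 14.3% of the 8634 sites in both leptonema lists and 60.2% of the 1778 sites called only in zygonema by the same rule. The last stage with a call was late pachynema at 61 of these sites, early pachynema at 51, zygonema at 37 and leptonema at 11. No Abcam peak was called at any stage at 11 members.

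Sites called only in zygonema or only in diplonema by the same rule had other Abcam courses. Of 1778 zygonema-only sites, 5.85% at a TSS, 96.3% had an Abcam peak in zygonema, 2.08% in early pachynema and 0.394% in diplonema. Of 459 diplonema-only sites, 100% had one in late pachynema and in diplonema and 40.3% in leptonema. A high Abcam share at the stage that chose a set, and a lower one where EpiCypher calls had to be absent, is in part built into the rule. Each of these comparisons rests on single libraries and was not tested.

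**Figure D3:**
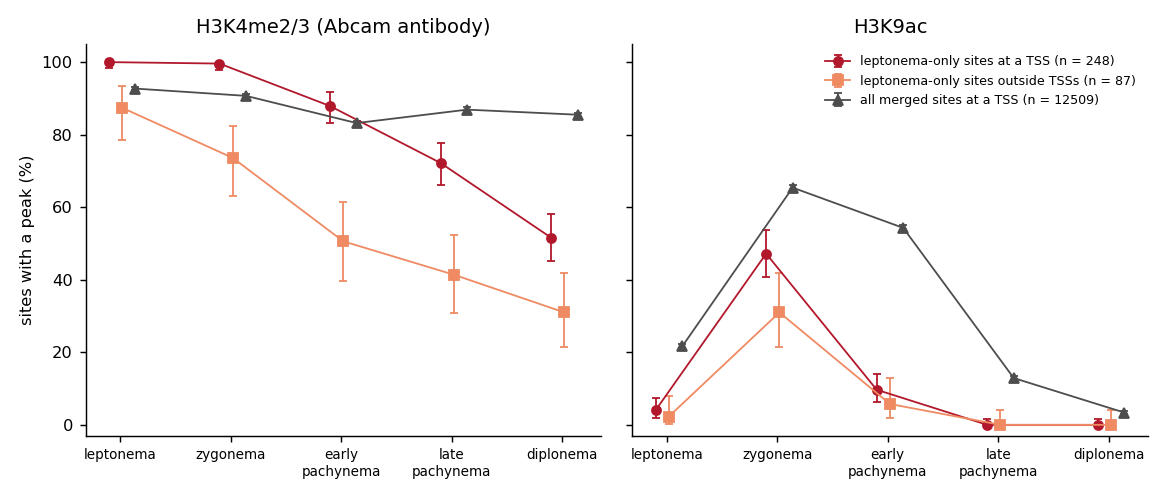
Share of sites (%) with an Abcam H3K4me2/3 peak (left) or an H3K9ac peak (right) at each stage, for leptonema-only sites at a TSS (n = 248) and outside TSSs (n = 87) and for all merged sites at a TSS (n = 12509); bars are exact binomial 95% intervals over sites. The Abcam share of the TSS members goes from 100% in leptonema to 51.6% in diplonema while that of all TSS sites stays between 83.2% and 92.7%. The H3K9ac shares of the TSS members lie below those of all TSS sites at each stage. All merged sites outside TSSs, the background for the 87 other members, are not drawn.

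The Abcam shares depended on how the sites were chosen. When the widest 4883 peaks of each EpiCypher list were kept, so that no list was longer than another, the rule gave 219 sites, and they overlapped 39 of the 335 members. In those 219 sites the Abcam share in diplonema was 79.5%, not 46.3%. Most of the 219 belong to merged sites with a peak in another EpiCypher list when all peaks are kept. They are thus largely other sites than the members. The 39 sites held 15 of the 21 named promoters, 12 of which had been named for their width, which this setting keeps. Stra8, Mei4, Figla, M1ap, Dmrt3, Gli2 and Esrp1 were among the 15, and Mcm2, Pold1, Cd9 and Pdgfra were not.

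H3K9ac was called at few members in leptonema itself. A peak was found at 12 of 335 members at LE (3.58%, exact 95% interval 1.86 to 6.17), 144 at ZY (43.0%, 37.6 to 48.5), 29 at EP (8.66%, 5.87 to 12.2) and none at LP or DI (0%, upper bound 1.10%). All merged sites had 10.9%, 53.8%, 28.2%, 6.64% and 1.97%. The lists differ in length, from 16003 peaks in zygonema to 516 in diplonema, so shares are read against the background of their own stage and not across stages.

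Among members at a TSS the H3K9ac share was 4.03% in leptonema, 47.2% in zygonema and 9.68% in early pachynema, where all TSS sites had 21.6%, 65.4% and 54.3%. In late pachynema and diplonema it was 0% where all TSS sites had 12.9% and 3.39%. The TSS members were below this background at every stage. Outside TSSs the shares of members were 2.30% at LE (2 of 87 sites), 31.0% at ZY and 5.75% at EP. All merged sites outside TSSs had 0.620%, 42.7% and 3.24%, so these members were not lower at LE and EP. For sites chosen from wider peaks the shares were higher: the 219 sites from lists of equal length had 12.8% at LE and 69.9% at ZY, and the 285 sites from peaks of at least the median width had 19.3%, 74.0% and 41.8% from LE to EP. With H3K9ac lists of equal length, 0.597% of the members had a peak at ZY. No H3K9ac peak was called at any stage at 182 members (54.3%, against 43.0% of all merged sites), a zygonema peak alone at 112 (33.4% against 27.8%) and peaks at zygonema and early pachynema at 23 (6.87% against 12.3%).

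Both leptonema and zygonema carried H3K9ac at 9 members, 8 of them at a TSS, and 3 had it in leptonema alone. The following genes were named after their values were seen. Prss50, a testis serine protease, had H3K9ac peaks of 351 bp in leptonema and 162 bp in zygonema and Abcam peaks at those stages only, of 1475 and 728 bp. Efnb3, a transmembrane ephrin, had the same pattern, with H3K9ac peaks of 185 and 170 bp. Dscc1, a subunit of the clamp loader that serves sister chromatid cohesion, had an H3K9ac peak in leptonema alone, of 430 bp, and Abcam peaks at all 5 stages.

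Outside TSSs, 45 of the 87 members were intergenic, 25 overlapped an exon and 17 lay in an intron. The shares were 51.7%, 28.7% and 19.5%, against 44.1%, 16.0% and 39.8% of all merged sites outside TSSs. Their median distance to the nearest TSS was 9289 bp, and 35 were within 5000 bp of one. The 5 that ranked highest in width lay at chr4:131508885-131510799 (intergenic), chr14:61684698-61687878 (an exon of Gm37820), chr3:153426501-153428356 (an intron of St6galnac3), chr16:92254000-92256733 and chr16:17940329-17941658 (both intergenic). Their H3K4me3 peaks were 847 to 1392 bp wide in leptonema R1 and 1330 to 3181 bp in leptonema R2. None had an H3K9ac peak, and the Abcam antibody gave a peak in leptonema alone at chr4:131508885-131510799 and chr16:17940329-17941658, in leptonema and zygonema at chr14:61684698-61687878, and at no stage at the other sites.

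The centre of the first of these sites, chr4:131509742-131509941 on the forward strand, is shown because its sequence repeats itself with small changes. It held 1 CpG and none of the motifs searched, so no letter is in capitals.
Intergenic site on chromosome 4: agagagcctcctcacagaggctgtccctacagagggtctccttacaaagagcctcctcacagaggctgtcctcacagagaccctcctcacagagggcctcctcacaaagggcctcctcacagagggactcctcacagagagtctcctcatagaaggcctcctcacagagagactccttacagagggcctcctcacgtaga

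To describe such repeats, each 500 bp window at a site's centre was shifted against itself by 5 to 60 bp, and the highest share of equal bases was kept. At the chromosome 4 site it was 80.9% at a shift of 60 bp, at chr16:92254000-92256733 it was 90.4% at 53 bp, at chr16:17940329-17941658 78.1% at 11 bp and at chr3:153426501-153428356 70.7% at 16 bp. The median over all merged sites was 32.8%. A share of at least 70% was reached by 15 of the 335 members (4.48%), 0 of the 248 at a TSS and 15 of the 87 outside TSSs (17.2%), compared with 0.997% of all merged sites and 1.87% of those outside TSSs. Of the 22 members whose Abcam calls were leptonema alone or none, 13 were among these 15. Among all merged sites, 594 had an Abcam call at leptonema alone and 3138 at no stage. The share of such repeats in these sites was not computed. Each named window on chromosomes 3 and 16 had a ratio of observed to expected CpG of 0 or 0.0367. The part of read mapping to repeats in these calls was not tested.

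Base composition separated the TSS members little from other promoters. Over the 500 bp windows the members at a TSS had a median of 65.5% G and C and an observed to expected CpG ratio of 0.732, and all TSS sites had 64.8% and 0.801. Members outside TSSs had 55.4% and 0.556, against 45.8% and 0.211 for all sites outside TSSs. Zygonema-only sites had 43.2% and 0.165 and diplonema-only sites 49.2% and 0.311.

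The STRA8 and MEIOSIN motif CNCCTCAG, on either strand, was in the 500 bp window of 73 of the 248 TSS members (29.4%, exact 95% interval 23.8 to 35.5), of 17.6% of all merged sites at a TSS and of 20.8% of the 7435 TSS sites in both leptonema lists. In the 200 bp upstream of the TSS it was in 28 of 248 windows (11.3%, 7.63 to 15.9) and in 6.72% of all 12509. By the G and C content of the window, the motif was in 44.9% of the 49 TSS members below 60%, 22.1% of the 68 from 60 to 65%, 30.4% of the 69 from 65 to 70% and 24.2% of the 62 above, where all TSS sites in these classes had 14.6%, 17.8%, 18.6% and 20.1%. Outside TSSs it was in 25.3% of members (16.6 to 35.7) and 11.2% of all sites. This was 1 of 10 motifs searched, and a match of 8 letters with 1 free position is a description of the sequence, not a bound site.

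Of the 21 named promoters, 8 had this motif in the 500 bp window: Figla, M1ap, Gli2, Foxd2, Fzd7, Arhgap29, B3gnt2 and B020017C02Rik. Matches at germ-cell and developmental transcription genes and at M1ap are shown with 11 bases on each side and the motif in capitals, on the strand that reads CNCCTCAG. They are chr6:86017089-86017118 (+), chr6:86017191-86017220 (-) and chr6:86017283-86017312 (-) at Figla, chr6:82946800-82946829 (-) and chr6:82947141-82947170 (-) at M1ap, chr1:119053853-119053882 (+) at Gli2 and chr4:114908973-114909002 (+) at Foxd2.
Figla first match: atgccccgcccCTCCTCAGctcatgccccg
Figla second match: aggcacctgggCGCCTCAGgtgttccaagc
Figla last match: agctcctccagCACCTCAGcctgcggagtg
M1ap first match: tgggccttcttCCCCTCAGgctcctcaagt
M1ap second match: ggttggtgtccCCCCTCAGaccttcccttc
Gli2: agactctccccCACCTCAGctccagcaagg
Foxd2: atgtcccctagCTCCTCAGcgccccctggt

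The Figla matches lay 87, 15 and 107 bp from the TSS at position 86017191 of chromosome 6, and those of M1ap 87 and 254 bp from its TSS. At Stra8 neither the 500 bp window at the centre of its site nor the 200 bp upstream of its TSS held a match. Of the other motifs, the GC box was in 81.9% of TSS members and 71.6% of all TSS sites, the CCAAT box in 35.5% and 37.7%, and the TATA box TATAAA in 4.44% and 7.15%. The E-box CACGTG was in 11.3% and 11.7%, the MYB motif TAACGG in 4.84% and 6.59%, and the E2F motifs TTTCCCGC and TTTGGCGC in 3.63% and 0.806% against 3.21% and 1.17%. In the 7435 TSS sites of both leptonema lists the GC box was in 81.7%, the CCAAT box in 35.8% and the TATA box in 4.69%. These 3 shares were near those of the TSS members. The cAMP response element TGACGTCA was in 2 of the 248 TSS members (0.806%, exact 95% interval 0.0978 to 2.88) and 2.49% of all TSS sites. The DR5 retinoic acid response element was in no member and in 2 of all 25578 sites.

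The genes at the 248 TSS sites numbered 287, of which 243 were protein-coding, 10 processed transcripts, 9 antisense RNAs and 8 lincRNAs. At any merged site there were 14621 genes, of which 11474 were protein-coding, 312 processed transcripts, 764 antisense RNAs and 750 lincRNAs. One gene was found at 209 sites, 2 genes at 36 and 3 genes at 3, and 34 sites (13.7%) had genes on both strands, compared with 21.2% of all TSS sites. Of the protein-coding genes, 50 of 243 (20.6%) had TSSs at more than 1 merged site, where 8.34% of the 11474 protein-coding genes at any site did. A gene with more marked sites has more chances to lie at a member, which raises the first share, and the difference was not tested. At 12 genes another TSS had a peak in all 10 EpiCypher lists. Apc, a scaffold of Wnt signalling, Idh1, a metabolic enzyme, and Arhgap29 were among these 12, chosen after their values were seen apart from Arhgap29, and each had 1 other marked TSS site.

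Members were spread over all 19 chromosomes, from 7 on chromosome 12 (0.614% of its sites) to 33 on chromosome 11 (1.67%), with the highest share on chromosome 19 (2.17%). The median distance to the nearest other member was 1110197 bp. Another merged site lay within 1000 bp of 31 members (9.25%), as of 5.80% of all sites.

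The rule has a sharp edge, and sites just outside it were as many as those inside. Of 8634 sites with a peak in both leptonema lists, 335 had none in the other lists, 363 had a peak in exactly 1 other list and 3291 had a peak in all 8. The 1 other list was zygonema R1 at 176 of the 363, diplonema R2 at 107, zygonema R2 at 57, early pachynema R1 and late pachynema R2 at 10 each, diplonema R1 at 2, late pachynema R1 at 1 and early pachynema R2 at 0. The Abcam shares of these 363 sites were 99.4%, 99.4%, 78.0%, 73.3% and 65.8% from leptonema to diplonema. A peak in leptonema R1 alone was found at 141 sites and in leptonema R2 alone at 2565. The need for a peak in R1, the shorter list, thus left out more sites than the need for one in R2.

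**Figure D4:**
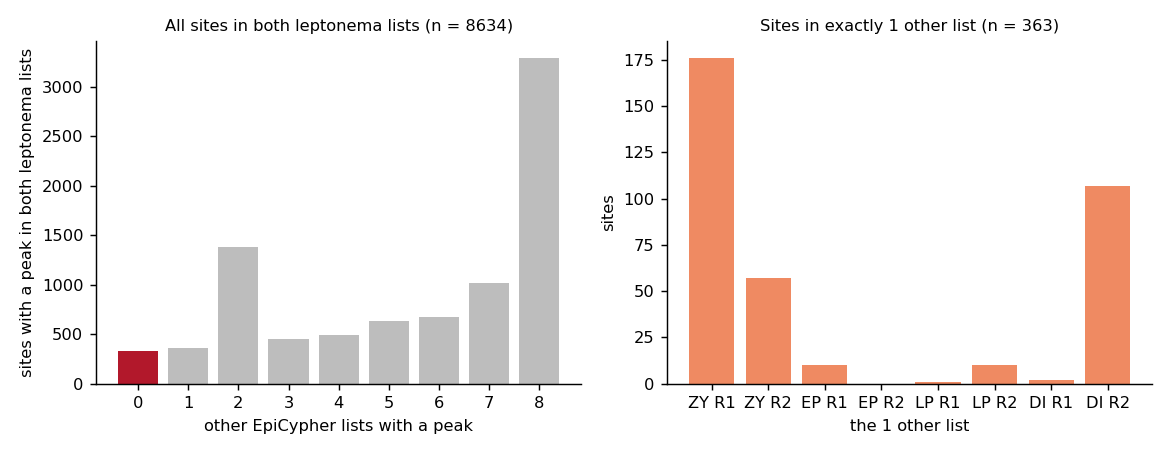
Left, number of sites with a peak in both leptonema lists by the number of the 8 other EpiCypher lists with a peak (335 at 0, in red, and 3291 at 8). Right, for the 363 sites with exactly 1 other list, which list that was (stage and replicate); zygonema R1 (176) and diplonema R2 (107) take most of them.

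The sites can also be chosen in 1 experiment and read in the other, which gives calls that the choice did not use. Of 19049 sites merged from the 5 R1 lists, 1040 had a peak in leptonema alone. In the R2 lists, 861 of these had a peak at LE (82.8%), 219 at ZY (21.1%), 4 at EP (0.385%), 305 at LP (29.3%) and 452 at DI (43.5%). Leptonema exceeded the mean of the other 4, 23.6%, by 59.2 percentage points. Its list was the longest of the 5 in R2, with 13095 peaks against 11314, 4883, 9124 and 12071 from zygonema to diplonema. The share of all 19049 sites called in each R2 list was not computed, so these shares have no background. In a two-sided exact permutation test over the 5 libraries p was 0.200, the smallest that this design allows, so it cannot pass 0.05.

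In the opposite direction, 3270 of 20275 sites merged from the R2 lists had a peak in leptonema alone. R1 had a peak at 571 of them at LE (17.5%), 331 at ZY (10.1%), 63 at EP (1.93%), 7 at LP (0.214%) and 8 at DI (0.245%). The difference was 14.3 percentage points over a mean of 3.13%, again with an exact permutation p of 0.200. Here too the share of all 20275 sites called in each R1 list was not computed. With the widest 4883 peaks of each list the differences were 48.1 and 23.3 points. Leptonema had the highest share in both directions. In R1 its list held 9528 peaks and that of zygonema 15699. The choice in R2 had left out every site with a zygonema R2 peak, and the part of list length in these shares was not tested. Sites chosen in R1 were called in diplonema R2 more often than in zygonema R2, whereas sites chosen in R2 were called in zygonema R1 and rarely in diplonema R1.

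**Figure D5:**
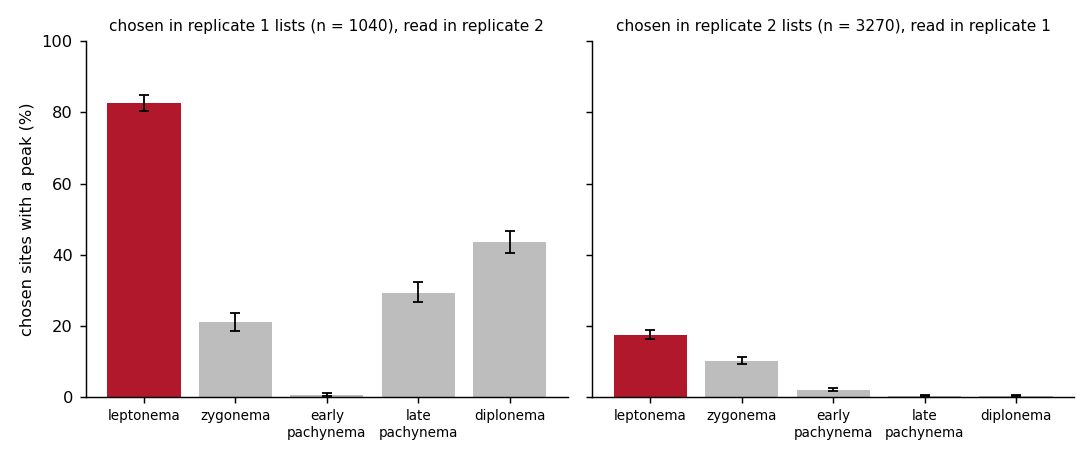
Share (%) of sites with a peak at each stage in the experiment that was not used to choose them: left, 1040 sites called in leptonema alone in R1 and read in R2; right, 3270 sites called in leptonema alone in R2 and read in R1. Bars start at 0, error bars are exact binomial 95% intervals over sites, and leptonema (red) is highest in both, at 82.8% and 17.5%.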

How the data were processed

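Nuclei of 5 meiotic stages were profiled by ChIP-seq, and 20 of 51 samples have a list of peaks. The authors aligned reads to mm10 with BWA 0.7.12 and called peaks per library with MACS2 2.1.2 in broad mode at q 0.1 against stage-matched input. For H3K9ac the control is not given in the sources used here. The deposited lists hold chromosome, start and end, a unit of other kind, namely positions in bp, with no score or count, and depth is unknown. Peaks that overlapped were merged across the 10 EpiCypher lists, and a site was called in a list if at least 1 bp overlapped. TSSs are from GENCODE M21 with 500 bp on each side. Sequence and GRCm38.p6 windows of 500 bp at site centres and 200 bp upstream of TSSs are from RefSeq. A width percentile is the rank of a peak within its own list. Intervals are exact binomial (scipy 1.17.1, Python 3.11.15), and the only test is the exact permutation test over libraries. The code was tested on simulated lists. Named were all genes of the fixed lists at a member, the 12 TSS sites and 5 other sites with the highest mean width percentile, and any TSS site with Abcam at leptonema only and H3K9ac in leptonema, of which there were 0. The upstream sequence of 1 named promoter is not reported here. The members, gene lists and motifs were chosen with earlier results of these data known. The other 31 samples (inputs, other marks and controls) were not analysed here. Alternatives covered merging, list size, TSS window, overlap and leaving out each library.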

Additional observations from a re-analysis of the deposited data

How the results depend on the processing

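Calls without scores, 1 Abcam and 1 H3K9ac library per stage and lists of unequal length limit these results, and depth is unknown. No paired analysis was possible because the shares come from no test and, in the permutation tests, each experiment served once to choose the sites and once to be read, so the directions use the same 10 lists and are not independent blocks. Diplonema H3K9ac was 0% under each alternative tried. For sites chosen in 1 experiment the 1 alternative was equal list size. It moved the difference from 59.2 to 48.1 points for sites chosen in R1 and from 14.3 to 23.3 points for those chosen in R2. The exact permutation p stayed at 0.200, the smallest the design allows, so it says nothing about how stable these differences are. Merging sites up to 500 bp apart gave 332 sites that overlapped 327 of the 335 members. Keeping the widest 4883 peaks of each EpiCypher list gave 219 sites, 86.8% at a TSS, with Abcam at 96.8% (ZY), 90.9% (EP), 85.4% (LP) and 79.5% (DI) and H3K9ac at 12.8% (LE), 69.9% (ZY) and 25.1% (EP). Peaks from the median width up gave 91.2% at a TSS, Abcam 97.5%, 93.0%, 88.4% and 84.6% from ZY to DI and H3K9ac 19.3%, 74.0%, 41.8% and 1.40% from LE to LP, on 285 sites that overlapped 42 members. Absence from at least 7 of the 8 other lists gave 698 sites, Abcam 96.3% (ZY) and 56.4% (DI) and H3K9ac 53.6% (ZY) and 12.9% (EP). With protein-coding genes only, 68.7% were at a TSS. Requiring overlap of 50% of the site gave Abcam 87.5%, 62.7%, 51.0% and 33.4% from ZY to DI and H3K9ac 0.597%, 23.3% and 2.99% from LE to EP. Equal Abcam lists gave 89.3% (LE), 79.1% (ZY) and 56.4% (LP), and equal H3K9ac lists 0.597% (LE), 0.597% (ZY) and 0.299% (EP). Leaving out each EpiCypher list in turn gave 335 to 2906 sites (2906 without leptonema R1, 510 without zygonema R1, 501 without leptonema R2, 445 without diplonema R2), 43.7 to 76.9% at a TSS, Abcam 76.6 to 97.6%, 64.0 to 95.3%, 39.5 to 80.7%, 31.9 to 71.2% and 24.7 to 58.4% from LE to DI, and H3K9ac 0.654 to 3.58%, 16.0 to 56.3%, 3.10 to 11.6% and 0 to 0.0344% from LE to LP. Without leptonema R1, where 1 leptonema list chose the sites, the TSS share was 43.7% and the Abcam share at diplonema 24.7%. The cause of these shifts was not tested.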

Other observations

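Other germline and imprinted genes at leptonema-only sites were picked after their values were seen and carry no test. Zglp1, a GATA-type zinc finger factor of female germ cells, had H3K4me3 peaks of 257 and 421 bp in the leptonema libraries and Abcam peaks at leptonema (1498 bp) and zygonema (289 bp) only. Cenpa, the histone H3 variant of centromeres, had H3K4me3 peaks of 559 and 419 bp and Abcam peaks at all 5 stages, of 1273 bp in leptonema and 584 bp in diplonema. The noncoding RNAs Airn and Peg13, both imprinted, had Abcam peaks at all 5 stages. Airn had H3K4me3 peaks of 622 and 392 bp and an H3K9ac peak of 571 bp in zygonema, and Peg13 had H3K4me3 peaks of 383 and 1130 bp and no H3K9ac peak. Fos, an immediate early gene, had Abcam peaks that measured 3523 bp in leptonema and 381 bp in diplonema. Genes named Zfp, mostly zinc finger factors, numbered 8 of the 287 genes at the members and 288 of the 14621 genes at all merged sites.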
